A study of Gallus gallus with 100 samples.

Results

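The aminoacyl-tRNA synthetase genes of the chicken pituitary gland were followed here through a heat trial and across the ages of the control birds. Members were chosen by symbol alone. A gene counted if its symbol was the letter of an amino acid followed by ARS or ARS2, or was EPRS, EARS2, FARSA, FARSB, FARS2 or PARS2. Of the 18685 genes listed in at least 1 of the 6 tables, 28 were members. The rule could take 40 symbols, and the other 12 matched no listed gene, so they could not be analysed here. The birds were male broilers of the Ross 708 line, grown for meat, and each library held the RNA of the whole pituitary of 1 bird. Control birds stayed in a thermoneutral house held at 25 degrees C, and heat birds in another house where the temperature was raised to 35 to 37 degrees C for 8 hours a day from day 21. The groups were 15 control birds at day 21, before the heat began, then 10 control and 13 heat birds at day 22 after the 8 hours of heat, 6 and 5 at day 26 with a label of 2 hours, 6 and 6 at day 32 with a label of 4 hours, 5 and 5 at day 40, whose labels add only the word Week and which the design text does not name, so that its length of heat is not given, and 10 and 17 at day 42 after 3 weeks of cyclic heat. Each treatment had 1 house, so heat and house cannot be told apart.

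An aminoacyl-tRNA synthetase joins an amino acid to the transfer RNA that carries it to the ribosome, so each amino acid used in translation needs such an enzyme. One set works in the cytosol and another, encoded by nuclear genes that mostly end in 2, works in mitochondria, while GARS encodes the enzyme of both places. In vertebrates several cytosolic synthetases are held together in the multisynthetase complex with the scaffold proteins AIMP1, AIMP2 and EEF1E1. In mouse and human cells many cytosolic synthetase genes are targets of ATF4, the transcription factor that acts when amino acids are short or protein folding fails.

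The members comprised 14 cytosolic enzymes, 13 mitochondrial ones and GARS. Each day has its own table, and the tables listed 21 members at day 21, 18 at day 22, 24 at day 26, 24 at day 32, 20 at day 40 and 20 at day 42. CARS2, FARS2, FARSB, GARS, IARS, IARS2, LARS, NARS, RARS2, TARS, WARS and YARS2 were in every table. On galGal4, as the files place them, LARS (Entrez 416347) spanned chr13:17255698-17279415, CARS2 (418757) chr1:138504993-138538107 and FARS2 (428482) chr2:65290855-65529260. RARS2 (421823) spanned chr3:75824823-75857226, TARS (427427) chrZ:9961225-9975745, IARS (415957) chr12:3502361-3592912 and NARS (426856) chrZ:366993-378567. These are gene spans in the day 42 table, and the ends differ between tables for most members. YARS2 shared its span with DNM1L in 6 tables and AARS2 with RNF8 in 5. In 1 table each, WARS overlapped SLC25A47, RARS overlapped LOC416169, RARS2 overlapped SLC35A1, IARS2 overlapped BPNT1 and FARS2 overlapped LYRM4. The study names a stranded kit for its libraries, but whether strand was used in counting is not given in the sources used here, so reads of these pairs may be divided in an unknown way.

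The values are FPKM, fragment counts divided by gene length and by the mapped total of the library, so genes are on a scale per length. Sums of FPKM per library lay between 226025 and 796179. Relative depth, taken from low values within a table, was 0.424 to 1 over days 21 to 40 and 0.173 to 1 in day 42 controls. In day 42 heat birds it was 0.157 to 0.712, leaving out library 984 at 0.0091. That library had 6926 of 13931 genes listed at 0. Control library 1012 of day 42 lay 1.24 log2 units under its group over all genes and was the lowest for 16 of the 19 members with a value in every library. Heat library 1276 of day 32 lay 0.54 log2 units under its group and was the lowest for 20 of 24 members. The tissue label was checked against 12 anterior lobe markers, which include the hormones GH, PRL and POMC. Their summed level was 2.08 to 1728 FPKM over the control birds of days 21 to 40, but 93426 to 215364 FPKM in day 42 controls. Tables list different markers, so days were compared over the genes that both list. The 5 such myelin markers ran the other way, with sums of 10830 to 36372 FPKM in day 22 controls and 2.60 to 29.4 FPKM in day 42 controls. The 2 such astroglia markers summed to 156 to 426 FPKM in day 22 controls and 1.28 to 26.9 FPKM in day 42 controls. The label whole pituitary thus went with little anterior lobe RNA until day 40, and each difference between day 42 and earlier days cannot be told apart from a difference in tissue make-up. In such bulk samples fewer cells of a type and less RNA per cell cannot be told apart.

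The cytosolic enzymes stood above the mitochondrial ones for most amino acids. At day 21 the 10 cytosolic members had group medians of 9.95 FPKM (IARS) to 48.1 FPKM (NARS), and the 10 mitochondrial members 3.52 FPKM (RARS2) to 12.6 FPKM (IARS2). NARS, the asparagine enzyme, led the order, followed by AARS for alanine at 38.1, TARS for threonine at 32.1, GARS for glycine at 31.1 and YARS for tyrosine at 30.1 FPKM. TARS, GARS, YARS, EPRS and RARS lay within 29.5 to 32.1 FPKM, closer together than their spread over birds, so their order was not resolved. The lowest were PARS2, the mitochondrial proline enzyme, at 4.44 FPKM and RARS2, the mitochondrial arginine enzyme, at 3.52 FPKM.

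The other members kept to these levels where they were listed. Among the high cytosolic enzymes, DARS for aspartate had control medians of 46.2, 56.4, 48.0 and 30.1 FPKM at days 26, 32, 40 and 42, and SARS for serine, listed at day 26 alone, had 36.6 FPKM. RARS for arginine had control medians of 17.9 to 35.7 FPKM over days 21, 26, 32 and 40. CARS for cysteine had 14.9 to 19.6 FPKM over days 22, 26 and 40, and MARS for methionine had 21.9 FPKM at day 32, the day it was listed, where its span overlapped DDIT3. FARSB, a subunit of the cytosolic phenylalanine enzyme, stayed at control medians of 11.0 to 16.1 FPKM over all 6 days.

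Low levels marked most of the mitochondrial enzymes. LARS2 had control medians of 4.13 to 7.58 FPKM, NARS2 4.06 to 5.01 FPKM, MARS2 3.71 and 4.70 FPKM, PARS2 4.44 and 7.12 FPKM and EARS2, the glutamate enzyme, 1.74 to 4.24 FPKM over the days that listed them. TARS2 was higher, with 14.6 FPKM at day 32 and 18.8 FPKM at day 42, where CARS2, IARS2 and FARS2 were also at 37.8, 19.9 and 16.2 FPKM. YARS2 had control medians of 3.29 to 5.67 FPKM and was listed at 0 in 1 of 15 control birds of day 21, 1 of 10 of day 22 and 1 of 10 of day 42, and in 4 of 17 heat birds of day 42. In the heat birds of day 22 its spread was also wide, with a standard deviation of log2(FPKM + 1) of 0.798. Listings at 0 in that group are not given here, so zeros in heat birds are not read as confined to day 42. EARS2 and FARSB were listed at 0 in the same heat bird of day 42, library 984, which had 6926 of 13931 genes at 0. EARS2 was also at 0 in 1 heat bird of day 26. EEF1A1, an elongation factor that most cell types use, was also listed at 0 in libraries of day 42, so a listing at 0 is not taken as absence.

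Within single libraries, the cytosolic enzyme exceeded its mitochondrial partner 8.94-fold (median of 15 birds) for alanine, 9.44-fold for asparagine and 9.30-fold for arginine at day 21, in 15 of 15 birds each. For tyrosine the median was 5.48-fold over the birds with YARS2 above 0. YARS was the higher in 15 of 15, which includes the bird that listed YARS2 at 0. For leucine the median ratio was 1.92 at day 21, with LARS the higher in 14 of 15 birds. Isoleucine was the exception at day 21, with IARS2, the mitochondrial enzyme, above IARS in 14 of 15 birds and a median ratio of 0.754. At day 42 the ratio of IARS to IARS2 had a median of 0.260 in controls, the lowest of the groups, and IARS2 was the higher in 9 of 10 birds. In the heat birds of that day the median was 0.611, with IARS2 the higher in 16 of 17. The levels were nearer to equal in controls of days 22 and 26, with median ratios of 0.968 and 1.02. There IARS2 was the higher in 6 of 10 and 2 of 6 birds. TARS and TARS2, both listed at days 32 and 42, had a median ratio of 1.65 in day 32 controls and 1.01 in day 42 controls, where each was the higher in 5 of 10 birds. These ratios rest on FPKM per gene length and were not tested.

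**Figure D1:**
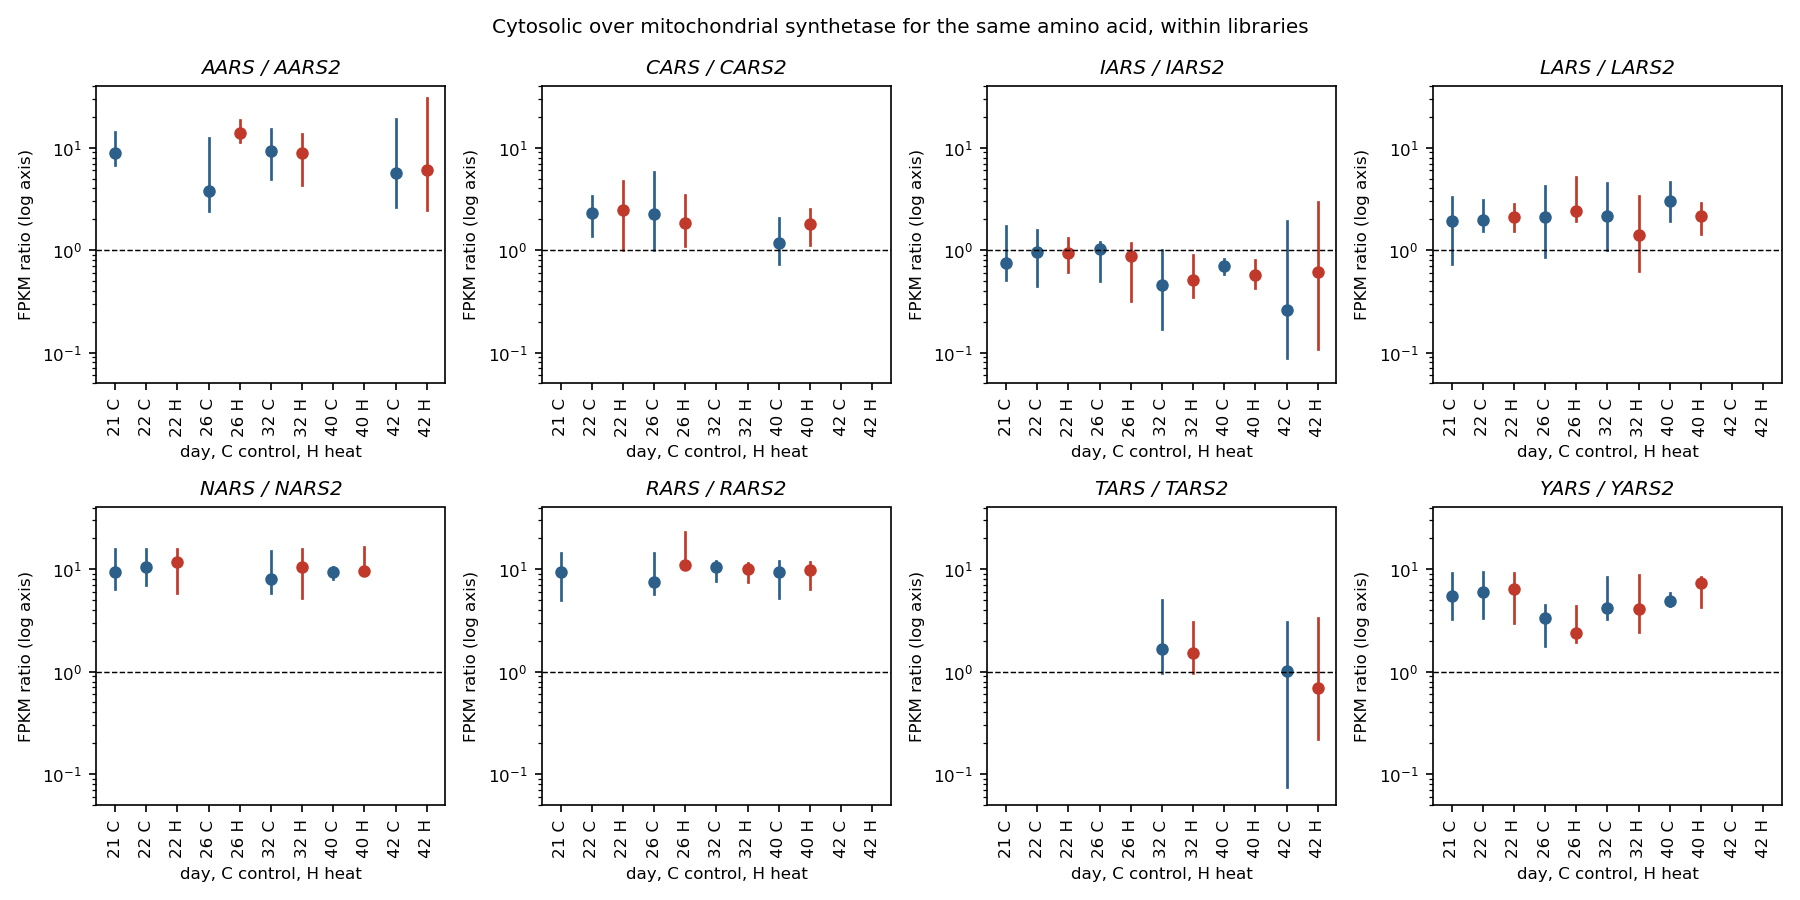
Ratio of the FPKM of the cytosolic to the mitochondrial enzyme for 8 amino acids (log axis) in each group of birds, blue for control (C) and red for heat (H), with the dot at the median over libraries and the line from the lowest to the highest library. Libraries that listed the mitochondrial enzyme at 0 have no ratio. Dashed lines mark equal levels, and the median ratio for isoleucine sits near or under it in each group, from 1.02 in day 26 controls to 0.260 in day 42 controls. In day 42 heat birds it is 0.611.

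Members differed in how much they varied between birds of a group. EPRS, which encodes the joint enzyme for glutamate and proline, was the most variable, with a standard deviation of log2(FPKM + 1) at a median percentile of 86.1 among all genes that averaged 1 FPKM or more, over 9 groups. In day 42 heat birds EPRS ran from 14.8 to 219 FPKM around a median of 31.4 FPKM, and in day 21 controls from 19.4 to 56.0 FPKM around 30.1 FPKM. IARS2 came next, at a median percentile of 80.4 over 11 groups. IARS, RARS2 and NARS, listed in all 11 groups, were among the steadiest, at median percentiles of 30.1, 31.2 and 31.4. In day 42 controls, however, IARS was at percentile 79.0 and ran from 0.781 to 19.1 FPKM. RARS2 had control medians of 2.59 to 7.28 FPKM, a low level at which adding 1 FPKM narrows the log2 spread. NARS in day 21 controls stayed within 37.5 to 58.5 FPKM. Over all members the median percentile in a group went from 35.5 in day 22 controls to 70.7 in day 32 heat birds, the group that holds library 1276.

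No synthetase gene passed the test between heat and control birds at any day. Genes were compared with limma on log2(FPKM + 1), and a gene was called higher or lower at a Benjamini-Hochberg adjusted p under 0.05 over all genes tested. At day 22, 0 of 18 members were called, against 0.121% of all genes higher and 0.0121% lower. At day 26, 0 of 24 were called, against 0.507% higher and 0.0771% lower. At days 32, 40 and 42, 0 of 24, 0 of 20 and 0 of 20 were called, against 0% higher and 0% lower of all genes at each of these days. An unadjusted p under 0.05 was reached by 1, 4, 0, 2 and 0 members at the 5 days, where 4.93%, 13.7%, 5.92%, 4.71% and 2.62% of all genes reached it. The smallest adjusted p of a member was 0.991, 0.283, 0.746, 0.934 and 0.999 in turn.

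The precision of these comparisons differed by day. The 95% interval of a member's difference reached a median of 0.22 log2 units to either side at day 22, 0.55 at day 26, 0.50 at day 32, 0.41 at day 40 and 0.55 at day 42. At day 22, 14 of 18 members were on the lower side in heat birds, but their differences lay between -0.20 and 0.08. At day 32, 21 of 24 were on the lower side with a median of -0.16, and the median over all genes was -0.17.

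**Figure D2:**
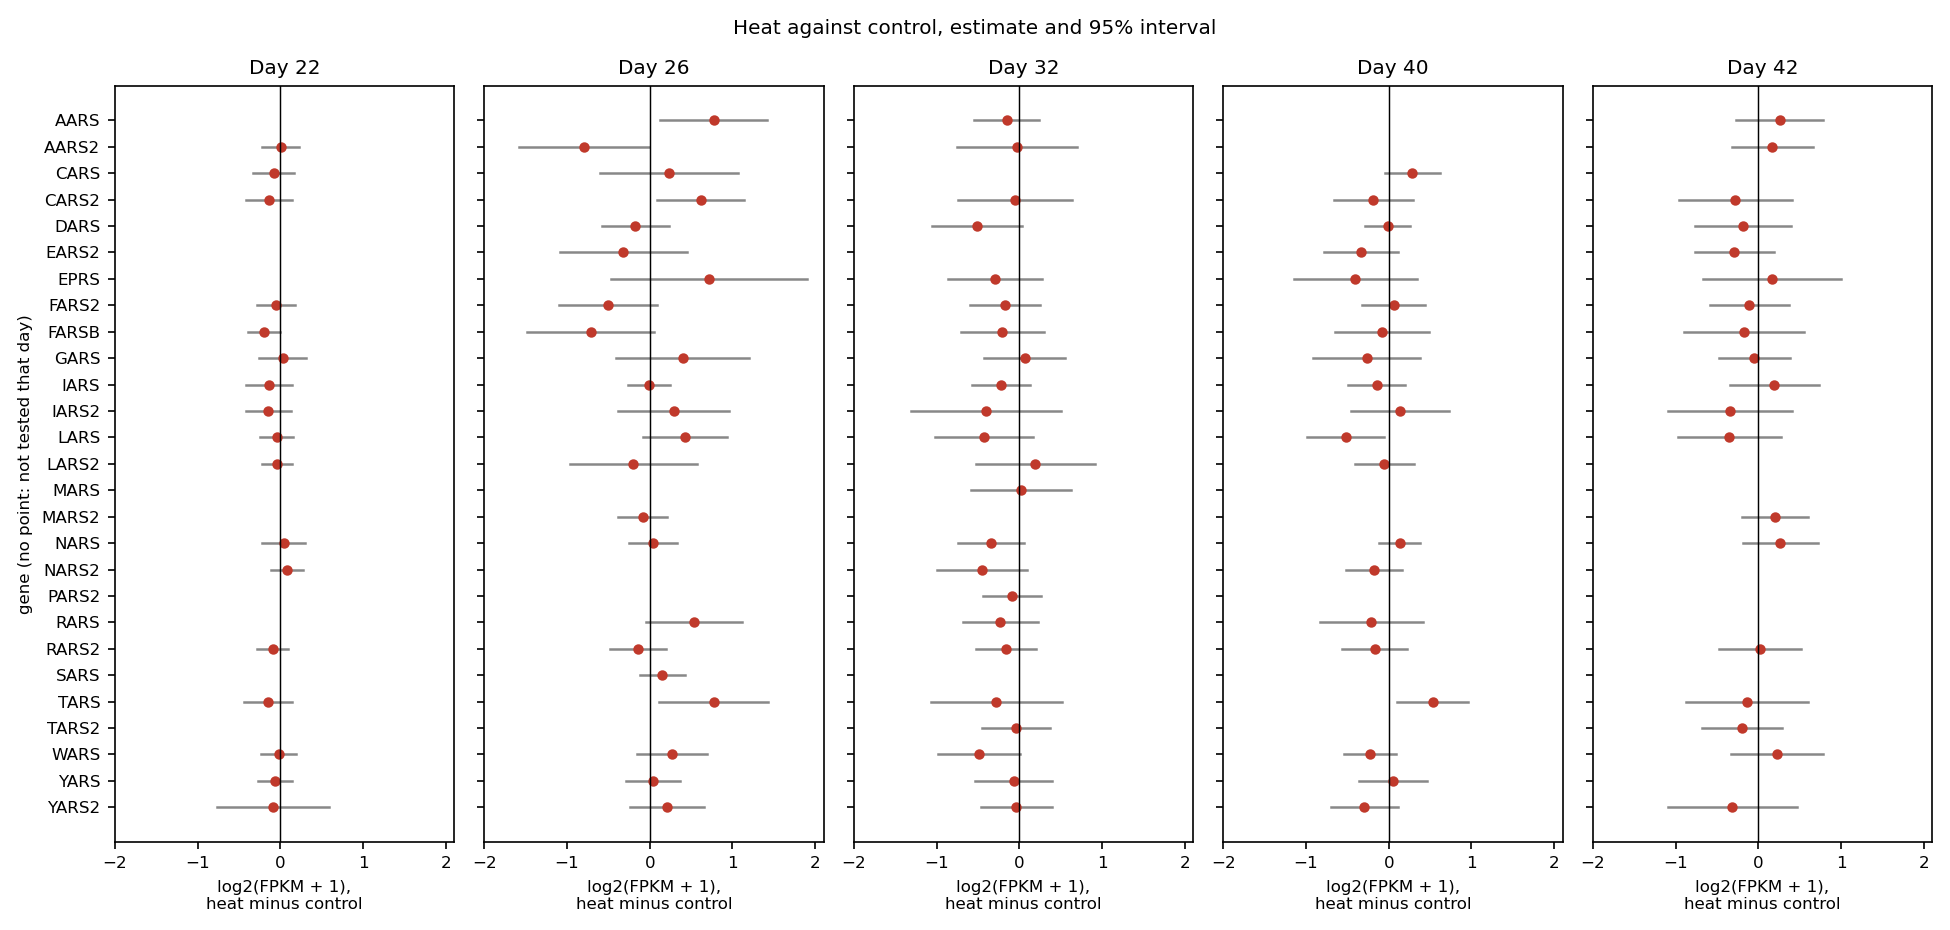
Difference in log2(FPKM + 1) between heat and control birds (x axis) for 27 of the 28 synthetase genes (y axis) at the 5 days with both groups, red dots for the estimate and grey lines for the 95% interval from limma. Intervals are narrowest at day 22, and none of the members passed the adjusted threshold on any day.

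Day 26 held the largest differences. The 4 members with an unadjusted p under 0.05, named after their values were seen, were AARS, TARS, CARS2 and AARS2. TARS was listed at 12.6 to 24.3 FPKM (median 22.0) in the 6 control birds. In the 5 heat birds it was 24.6, 26.7, 27.8, 28.5 and 76.0 FPKM. The groups did not overlap, 1 heat bird stood far above the rest, and the difference of 0.77 ± 0.30 (log2, SE) had an adjusted p of 0.289. Without that library, 1511, the difference was 0.48 with an adjusted p of 0.386. With the number range in the fit, it was 1.17 for TARS and 0.86 for AARS, with adjusted p of 0.691 and 0.788. Only numbers 1500 and above held birds of both groups, controls 1512, 1513 and 1514 and heat birds 1510 and 1511. The estimates with the range rest on these birds, library 1511 among them. AARS was 22.6 to 31.0 FPKM (median 27.6) in controls and 30.0, 30.2, 34.9, 78.9 and 92.9 FPKM in heat birds. In 3 of 5 heat birds AARS lay above the highest control, and the difference of 0.77 ± 0.30 had an adjusted p of 0.283. CARS2, the mitochondrial cysteine enzyme, differed by 0.62 ± 0.24 (adjusted p 0.290). AARS2, the mitochondrial alanine enzyme, differed by -0.80 ± 0.36 (adjusted p 0.353), with heat birds at 2.17 to 6.81 FPKM inside the control range of 2.14 to 12.1 FPKM.

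Split by place of work, 10 of 13 cytosolic members tested at day 26 were on the higher side in heat birds (median 0.24) and 3 of 10 mitochondrial ones (median -0.12), with a median of 0.06 over all genes. Of the 12 synthetases known as ATF4 targets in mouse and human cells, 11 were tested at day 26. Of these, 10 were on the higher side and 0 passed the test, and the list shares members with the cytosolic set. At days 22, 32, 40 and 42, 2 of 8, 2 of 10, 4 of 9 and 5 of 8 were on the higher side. ATF4 itself was 357 to 463 FPKM in day 26 controls and 505 to 882 FPKM in heat birds, without overlap, at a difference of 0.59 ± 0.14 and an adjusted p of 0.112. The medians of some tissue markers were also apart at day 26. Anterior lobe markers summed to 5.43 to 525 FPKM (median 21.9) in controls and 32.4 to 220 FPKM (median 129) in heat birds, inside the control range. Hypothalamic peptides had medians of 296 and 68.5 FPKM, and connective markers 468 and 246 FPKM, also with overlap. These marker sums were not tested, nor was their part in the values above.

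At day 40, LARS was on the lower side by 0.52 ± 0.21 and TARS on the higher side by 0.53 ± 0.19, both with an adjusted p of 0.934. By median, the control birds of that day held more hypothalamic peptide RNA, with a summed level of 17.8 to 5091 FPKM (median 2422). In heat birds it was 11.1 to 1419 FPKM (median 83.5). The ranges overlapped, and neither this difference nor its part was tested. The 12 members listed at each of days 22 to 42 were also tested for a heat difference that varied with the day. Among 7646 genes 0.183% passed, and of these members 0 passed, with unadjusted p from 0.207 to 0.945 and an adjusted p of 1.00 for each.

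In the same libraries heat shock chaperones passed the test at days 22 and 26. Of the 14 listed for comparison, 4 of 10 tested rose at day 22 and 7 of 11 at day 26, against 0.121% and 0.507% of all genes. At days 32, 40 and 42, 0 passed, as for all genes. The median difference of the list was 0.57 and 1.51 at days 22 and 26. It was -0.05, 0.19 and 0.57 at days 32, 40 and 42. HSPA2, a chaperone of the HSP70 family, had a median of 58.9 FPKM in day 26 controls and 766 FPKM in heat birds (adjusted p 0.00811). BAG3, which assists these chaperones, had medians of 32.2 and 295 FPKM (adjusted p 0.00811). HSPH1, CHORDC1 and HSPA8 also rose at day 26. Of the 32 genes of the amino acid response, most of them known targets of ATF4, 23 were tested at day 26. Their median difference was -0.01, against 0.06 over all genes. Of these 23, 1 passed, ATF3, a stress-induced transcription factor. ATF3 was 5.47 to 7.13 FPKM in controls and 9.52 to 11.4 FPKM in heat birds, without overlap, and its difference was 0.62 ± 0.10 (adjusted p 0.0293). No gene of that list passed on the other 4 days, none of the eIF2 kinases and their partners passed on any of the 5 days, and none of the multisynthetase scaffolds did.

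Among controls, no synthetase gene passed the test between days 21 and 22. Of 17 members tested, 0 were called, against 0.18% of all genes higher and 0.0771% lower, and 2 had an unadjusted p under 0.05. The largest difference was 0.28 ± 0.15 for IARS (adjusted p 0.5003). The 2 libraries of day 21 numbered 1200 to 1400 had 5.98 and 6.19 FPKM of IARS and the 13 numbered 1500 and above had 8.01 to 17.7 FPKM, so the number of a library went with its IARS level within a group.

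From day 22 to day 26 the controls fell in 8 of 17 members and rose in 1, against 43.1% of all genes lower and 7.08% higher. The median over all genes moved by -0.35 and over the members by -0.37, so most of the fall was shared with the table as a whole. With each library rescaled to its median gene, 4 members were lower and 3 higher, and 1372 genes were lower and 1539 higher. Over the markers that both tables list, astroglia genes summed to 231 to 497 FPKM at day 22 and 197 to 266 FPKM at day 26. Myelin genes summed to 10830 to 36372 and 9520 to 14796 FPKM, and leukocyte genes to 10.8 to 24.0 and 7.96 to 15.2 FPKM. The days overlapped in each list, and the part of these cells was not tested. IARS, the cytosolic isoleucine enzyme, fell in both settings. It was 7.00 to 16.3 FPKM (median 13.2) at day 22 and 5.27 to 6.28 FPKM (median 6.03) at day 26, without overlap, at -0.91 ± 0.16 (adjusted p 3.26e-04). IARS2 fell from a median of 14.0 to 5.64 FPKM, at -0.97 ± 0.19 (adjusted p 5.66e-04). TARS fell from 35.3 to 22.0 FPKM, at -0.86 ± 0.18 (adjusted p 8.96e-04), and WARS, the tryptophan enzyme, from 15.8 to 8.74 FPKM, at -0.68 ± 0.12 (adjusted p 2.69e-04). These 4 stayed lower after rescaling, at -0.54, -0.59, -0.45 and -0.29. YARS, LARS, RARS2 and GARS did not pass after rescaling, and the call of GARS was lost without any 1 of the 6 day 26 libraries except 1513. AARS2 rose by 0.58 ± 0.22 (adjusted p 0.0379), and its call was lost without any 1 of the 6 day 26 libraries except 847. Within libraries numbered 1500 and above, 8 birds of day 22 and 3 of day 26, IARS, IARS2, TARS and WARS fell by 1.12, 1.08, 1.01 and 0.66 on the log2 scale and passed the test.

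Between days 22 and 32, 0 members rose and 4 of 17 fell, against 8.04% of all genes higher and 34.3% lower, with a median of -0.24 over all genes. IARS was 4.55 to 6.23 FPKM (median 5.54) at day 32, again without overlap with day 22, at -1.02 ± 0.17 (adjusted p 2.30e-04). It also passed after rescaling, at -0.74. WARS and RARS2 fell by 0.40 and 0.39 and did not pass after rescaling, when CARS2 and NARS2 were higher by 0.73 and 0.57 instead. Without library 1310, 1314 or 1315 of day 32, the calls of WARS and RARS2 were lost and 2 members were lower, IARS among them. Without 1277, 5 members were lower and 1, CARS2, higher. Shares of all genes called in these fits are not given here, so these counts are not read as a result about the members. All day 32 controls were numbered 1200 to 1400 and no day 22 control was, so this step and the number range cannot be told apart. Leukocyte markers in both tables summed to 10.8 to 24.0 FPKM at day 22 and 5.57 to 10.8 FPKM at day 32, and astroglia markers to 231 to 497 and 219 to 395 FPKM. Connective markers had medians of 782 and 445 FPKM. Other lists went the other way by median. Anterior lobe markers summed to 2.08 to 172 FPKM (median 22.1) and 35.9 to 1728 FPKM (median 131). Medians of hypothalamic peptides were 29.8 and 138 FPKM, and those of neuron markers 29.6 and 39.1 FPKM. The part of these cells was not tested.

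Between days 22 and 40, 0 of 16 members were called, against 0.226% of all genes higher and 1% lower, while 7 had an unadjusted p under 0.05. IARS was 5.36 to 8.37 FPKM (median 7.29) at day 40, at -0.68 ± 0.19 (adjusted p 0.0810). In libraries numbered 1500 and above, 8 birds of day 22 and 4 of day 40, its difference of -0.76 passed. The median level of IARS was thus 9.95 and 13.2 FPKM at days 21 and 22 and 5.54 to 7.29 FPKM at days 26, 32, 40 and 42.

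**Figure D3:**
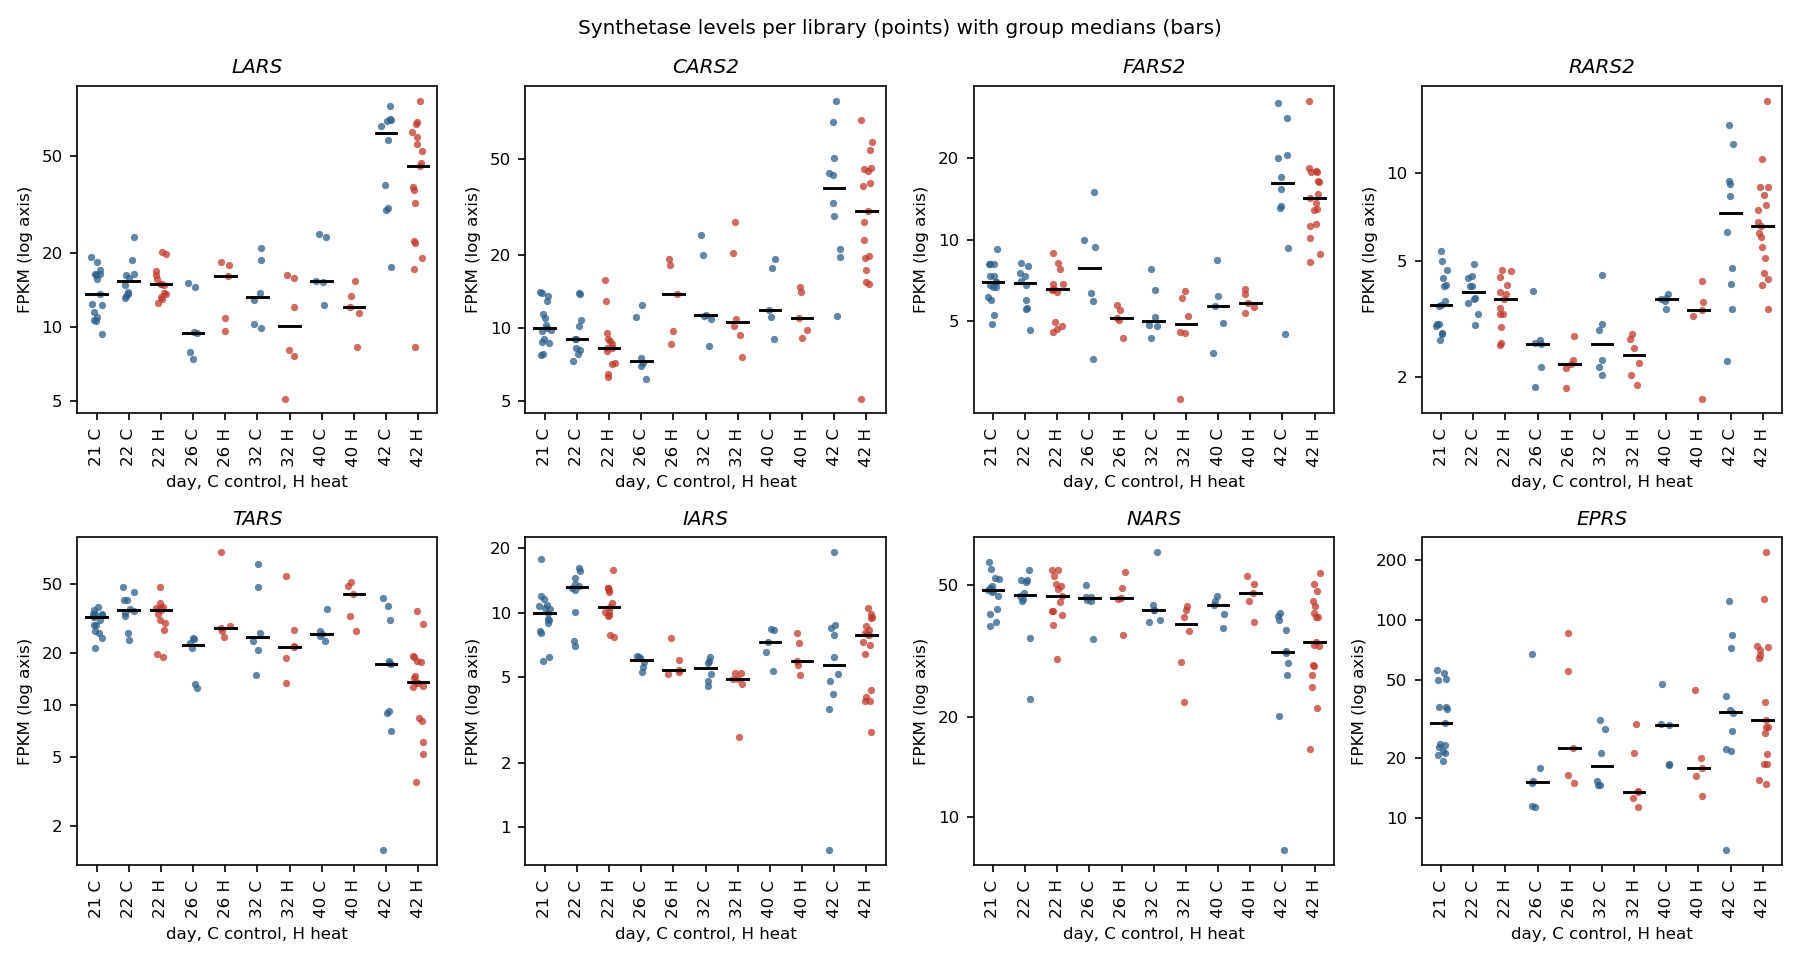
FPKM of 8 synthetase genes in every library (points, log axis, separate scale per gene) by day, blue for control (C) and red for heat (H) birds, with black bars at the group medians. LARS, CARS2 and FARS2 are highest at day 42 in both treatments (control medians 61.9, 37.8 and 16.2 FPKM). The group medians of IARS are lower from day 26 on, but control birds of day 42 overlap those of day 22. Among controls numbered 1400 to 1500, IARS differs by 0.20 from day 22 to day 42 and does not pass the test. EPRS has birds far above the median in several groups.

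Day 42 changed the order of the family. Of 14 members tested between the controls of days 22 and 42, 4 rose and 3 fell, against 21.3% of all genes higher and 31.8% lower. The median over all genes was -0.15, and over the members 0.05. LARS, the cytosolic leucine enzyme, had rank 7 of the 18 members by median level at day 22 and rank 1 of the 20 at day 42. These sets differ. YARS and CARS, above LARS at day 22, are not listed at day 42, and AARS, DARS and EPRS are listed at day 42 but not at day 22.

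LARS was 13.2 to 23.2 FPKM (median 15.3) in the 10 birds of day 22 and 17.5 to 79.8 FPKM (median 61.9) in the 10 birds of day 42. In 9 of 10 it lay above every day 22 bird, the exception being library 1012. The difference was 1.55 ± 0.24 (adjusted p 6.34e-06), a 3.32-fold ratio of means. CARS2 was 7.35 to 13.9 FPKM (median 9.06) at day 22 and 11.2 to 86.5 FPKM (median 37.8) at day 42, again above every day 22 bird in all but library 1012. Its difference was 1.75 ± 0.28 (adjusted p 1.00e-05), a 4.13-fold ratio of means. FARS2, the mitochondrial phenylalanine enzyme, was 4.61 to 8.16 FPKM (median 6.92) and 4.49 to 32.0 FPKM (median 16.2), with 9 of 10 day 42 birds above the range of day 22 and library 1012 below it. The difference was 1.12 ± 0.24 (adjusted p 4.46e-04). RARS2 was 3.00 to 4.85 FPKM (median 3.90) and 2.26 to 14.5 FPKM (median 7.28), with 6 of 10 birds above the earlier range. Its difference of 0.64 ± 0.23 passed (adjusted p 0.0257).

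TARS was 23.7 to 47.9 FPKM (median 35.3) at day 22 and 1.45 to 41.3 FPKM (median 17.3) at day 42, with 7 of 10 birds below the range of day 22. The difference was -1.26 ± 0.37 (adjusted p 0.00661). IARS was 0.781 to 19.1 FPKM (median 5.72) at day 42, at -0.96 ± 0.30 (adjusted p 0.00880), and both its lowest and its highest birds of the 2 days were day 42 birds. NARS was 22.7 to 55.3 FPKM (median 46.6) at day 22 and 7.94 to 41.0 FPKM (median 31.3) at day 42, with only 2 birds below the earlier range. Its difference was -0.62 ± 0.24 (adjusted p 0.0321).

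The rises and the falls did not stand equally well within a range of library numbers. The 2 days share only the range 1400 to 1500, with 2 birds of day 22 and 6 of day 42. There LARS, CARS2 and FARS2 were higher by 2.03, 1.93 and 1.67 and passed the test. TARS, IARS and NARS differed by 0.02, 0.20 and -0.14 and did not pass, so 4 members were higher and 0 lower, the other rise being FARSB. At day 42 the 4 controls numbered below 1100 had 1.45 to 9.15 FPKM of TARS and the 6 numbered 1400 to 1500 had 17.2 to 41.3 FPKM. At day 22 the 2 numbered 1400 to 1500 had 23.7 and 26.1 FPKM and the 8 numbered 1500 and above had 32.8 to 47.9 FPKM. Scaling also moved the balance. With FPKM rescaled to the same total in each library (TPM), a step in which the hormone genes of day 42 weigh heavily, 3 members were higher and 7 lower, and the median of all genes was -0.73. With rescaling to the median gene, 6 were higher and 3 lower. Shares of all genes called are not given here for these scalings or for numbers 1400 to 1500. The counts under them are therefore not read as a result about the members. LARS, CARS2 and FARS2 were higher in every one of these settings, at 0.92, 1.14 and 0.53 in TPM. RARS2 was at 0.09 in TPM and did not pass.

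**Figure D4:**
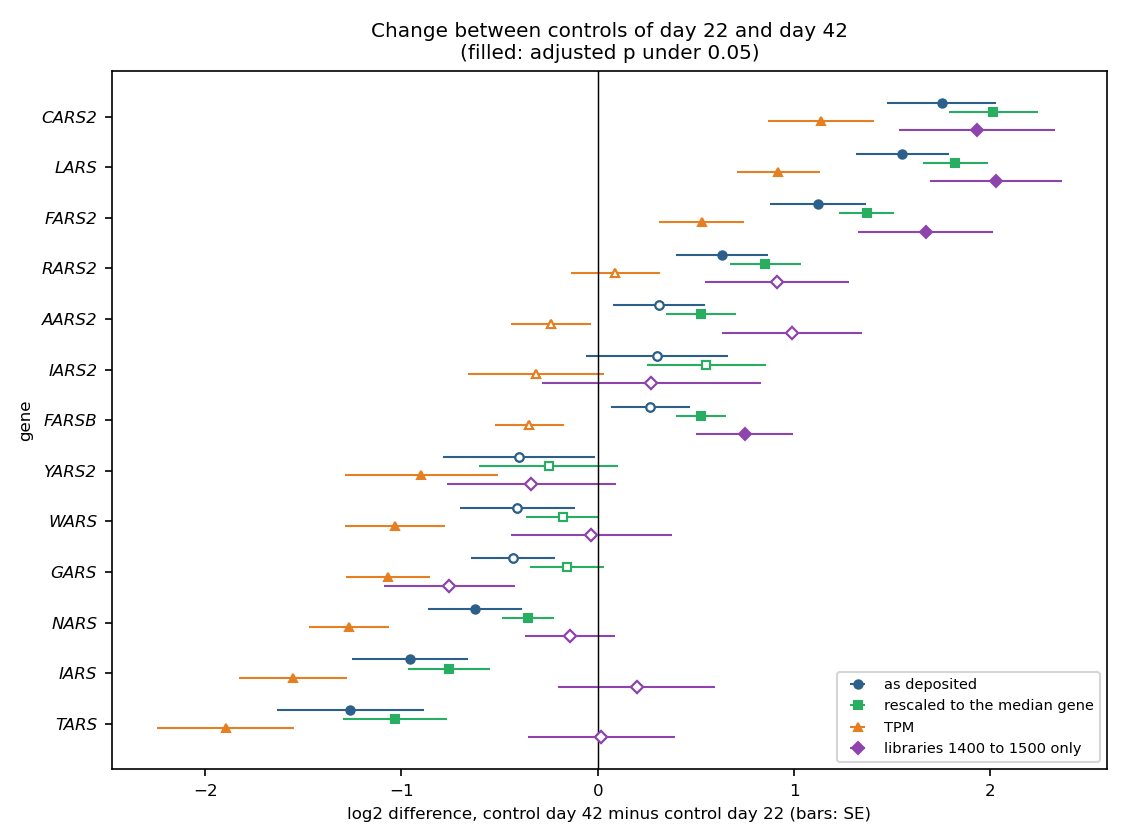
Log2 difference between control birds of day 42 and day 22 (x axis) for 13 of the 14 synthetase genes tested, under the deposited scale, 2 rescalings and libraries numbered 1400 to 1500 alone; bars are the SE and filled symbols passed an adjusted p of 0.05. CARS2, LARS and FARS2 are filled in all 4 settings, while TARS and IARS are at 0.02 and 0.20 in the libraries numbered 1400 to 1500.

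From day 40 to day 42, 3 of 15 members rose and 0 fell, against 15.2% of all genes higher and 21.8% lower. The 3 were LARS at 1.41 ± 0.34 (adjusted p 0.00261), CARS2 at 1.33 ± 0.39 (adjusted p 0.0111) and FARS2 at 1.32 ± 0.35 (adjusted p 0.00539). LARS was 12.3, 15.3, 15.4, 23.3 and 23.9 FPKM in the 5 controls of day 40, CARS2 9.04, 11.2, 11.9, 17.7 and 19.3 FPKM and FARS2 3.80, 4.90, 5.68, 6.16 and 8.39 FPKM. For each of the 3 genes, 9 of the 10 controls of day 42 were above all of these. This comparison shares its day 42 birds with the one above. No range of library numbers holds controls of both days. In TPM 2 members were higher and 6 lower, with CARS2 not passing, and after rescaling to the median gene 4 were higher and 2 lower. The shares of all genes under these scalings are not given here, so the counts are not read as a result about the members. Without library 1012, RARS2 at 0.84 and DARS at -0.65 passed as well.

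The heat birds, which entered none of these comparisons, were measured for the same 3 genes. LARS was 12.5 to 20.2 FPKM (median 14.9) in heat birds of day 22 and 8.26 to 83.7 FPKM (median 45.5) at day 42. CARS2 was 6.29 to 15.8 FPKM (median 8.29) and 5.13 to 72.5 FPKM (median 30.4), with library 984 the lowest. FARS2 was 4.55 to 8.96 FPKM (median 6.57) and 8.28 to 32.7 FPKM (median 14.3). The groups overlapped for all 3 genes, and days were not tested within heat birds.

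Grouped by role, 3 of 7 mitochondrial members rose between days 22 and 42 in controls and 0 fell, while 1 of 6 cytosolic members rose and 3 fell, against 21.3% of all genes higher and 31.8% lower. The 3 cytosolic falls, TARS, IARS and NARS, did not pass within numbers 1400 to 1500, as given above. No test compared the 2 sets. The mitochondrial translation factors had 1 of 5 higher, QRSL1, a subunit of the enzyme that makes glutaminyl-tRNA in mitochondria, and 1 lower, MTRF1, a mitochondrial release factor. Of the elongation factors 2 of 4 rose, EEF1A2 and EEF1B2, and 0 fell. Of 19 tested genes of the amino acid response 3 rose and 9 fell. Among these, PHGDH and PSAT1, enzymes of serine synthesis, fell from medians of 69.4 and 114 FPKM to 0.616 and 5.57 FPKM, and SLC7A5, a transporter of large neutral amino acids, from 21.6 to 1.13 FPKM. These genes were picked after their values were seen, and the lists stand beside the same change in tissue markers given above.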

How the data were processed

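The labels give 100 samples, of which 98 had a column, and 3 columns matched no labelled sample and were not used. The authors aligned reads to galGal4 with Bowtie and TopHat, counted with Cufflinks and deposited FPKM, 1 table per day; versions are not given in the sources used here. Tables were joined by symbol. Missing values, 1 for EARS2 in control library 1417 of day 42, were left out of the fit.

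FPKM were transformed to log2(FPKM + 1). Genes that averaged 1 FPKM or more in a comparison were tested with limma 3.58.1 in R 4.3.3 (mean trend, Benjamini-Hochberg over all genes, adjusted p under 0.05, no minimum fold change). Only the 2 compared groups entered a fit. In simulated data for day 26, 130 of 200 genes changed 2-fold were recovered, and 176 of 200 changed 4-fold. These were independent normal values with the spread of the day 26 controls in both groups, and the changed genes lay above a minimum level. In the data the SD of log2(FPKM + 1) differed between controls and heat birds, at 0.154 and 0.781 for AARS and 0.791 and 0.347 for FARSB. Recovery at the spread of the heat birds was not tested. Summaries used Python 3.11.15 with pandas 2.3.3.

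Library numbers form 4 ranges (below 1100, 1200 to 1400, 1400 to 1500, 1500 and above). Members, lists and tests were chosen with earlier results of these data known. All members entered the fits and counts, and 1 is not reported here singly; values per bird were to be given for members called in a heat comparison (none was, and the day 26 and day 40 members shown were chosen after their values were seen), and are given for up to 4 rises and 4 falls among those called between control days 22 and 42, and of the lists the genes that passed in a heat comparison are named, at most 5 each. Alternatives were a pseudocount of 0.1, no filter, rescaling to the median gene, TPM, a 2-fold minimum, number range, and leaving out libraries. Replicates are separate birds, and no libraries of a group held identical values. The 28 Entrez identifiers were matched to RefSeq (GRCg7b) for names only. Promoter motifs were not analysed here.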

Additional observations from a re-analysis of the deposited data

Results flagged for a closer look

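Of 174 sets of 4 to 10 libraries (a member in a group), 30 held a library far from the others by Dixon's test at its 95% level. Chance alone would put this share at about 1 in 20 only for normal values in separate sets. The test was run on FPKM without a log, and the sets share libraries. Neither an excess over chance nor a lean to high values is therefore read from the 30. They covered 14 of the 28 members. Values are given with the nearest other library of the group. AARS was 74.97 FPKM in control library 1414 of day 42 (highest, next 46.5). DARS was 84.7 FPKM in control library 1078 of day 26 (highest, next 52.0). EARS2 was 0 FPKM in heat library 1511 of day 26 (lowest, next 1.90). EPRS was 67.5 FPKM in control library 1514 of day 26 (highest, next 17.8) and 44.0 FPKM in heat library 1515 of day 40 (highest, next 19.99). FARSB was 34.0 FPKM in control library 845 of day 26 (highest, next 14.7). GARS was 47.3 FPKM in control library 1513 of day 26 (highest, next 23.7), 41.5 FPKM in control library 1277 of day 32 (highest, next 26.0), 68.5 FPKM in control library 1279 of day 40 (highest, next 27.9), 39.4 FPKM in heat library 1515 of day 40 (highest, next 23.5) and 57.0 FPKM in control library 1420 of day 42 (highest, next 36.1). IARS was 2.63 FPKM in heat library 1276 of day 32 (lowest, next 4.65) and 19.1 FPKM in control library 1416 of day 42 (highest, next 8.75). IARS2 was 6.39 FPKM in control library 1552 of day 22 (lowest, next 13.03), 11.7 FPKM in control library 845 of day 26 (highest, next 6.19), 19.0 FPKM in heat library 1313 of day 26 (highest, next 8.35) and 35.2 FPKM in control library 1277 of day 32 (highest, next 14.5). LARS2 was 16.9 FPKM in control library 1513 of day 26 (highest, next 7.13), 13.8 FPKM in control library 1308 of day 32 (highest, next 5.48) and 18.4 FPKM in heat library 1307 of day 32 (highest, next 8.15). NARS was 34.4 FPKM in control library 1514 of day 26 (lowest, next 44.7) and 62.5 FPKM in control library 1310 of day 32 (highest, next 43.5). RARS was 37.2 FPKM in control library 1513 of day 26 (highest, next 22.5), 48.1 FPKM in control library 1309 of day 32 (highest, next 26.5) and 14.2 FPKM in heat library 1276 of day 32 (lowest, next 23.3). TARS was 76.0 FPKM in heat library 1511 of day 26 (highest, next 28.5), 55.8 FPKM in heat library 1304 of day 32 (highest, next 26.9) and 35.6 FPKM in control library 1579 of day 40 (highest, next 26.6). YARS was 40.8 FPKM in heat library 1576 of day 40 (highest, next 27.2). YARS2 was 0 FPKM in control library 1553 of day 22 (lowest, next 3.97). Of these 30 values, 24 were the highest of their group. Control library 1513 of day 26 was set apart for GARS, LARS2 and RARS. EARS2 and YARS2 at 0 are listings at 0, not measured absences. No member's heat difference varied with the day past the test.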

How the results depend on the processing

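For heat against control, the count of members called stayed at 0 in all 67 alternative fits over the 5 days, with the smallest adjusted p at 0.154 on day 26. Over all comparisons, 112 of 126 alternative counts stayed within 1.5 times the main one. Of the 126, 67 were the heat fits, where the count was 0 throughout, so the share says little about comparisons with calls. From day 22 to day 26 the count of 9 was 0 with a 2-fold minimum and 7 to 9 without each day 26 library. Between days 22 and 32 the count of 4 was 9 in TPM, 1 with a 2-fold minimum and 2 to 6 without each library. Between days 22 and 40 the count of 0 was 1 in TPM and 1 within numbers 1500 and above. From day 22 to day 42 the count of 7 was 4 with a 2-fold minimum, 4 within numbers 1400 to 1500, 4 with the number range as a covariate and 8 without library 1012. From day 40 to day 42 the count of 3 was 6 after rescaling to the median gene, 8 in TPM, and 3 to 5 over fits without 1 library, the 5 being without 1012. Shares of all genes called under each alternative are not given beside these counts. Of 23 called differences under 241 alternatives, 187 kept direction and call, 50 kept direction only and 4 reversed. The reversals were from day 22 to day 42, for IARS at 0.20 and TARS at 0.018. Both came within numbers 1400 to 1500 and again with the range as a covariate, at the same estimates. The 2-fold minimum leaves each estimate as it was, so direction could not reverse there. Fits by number range between control days, and without libraries 1012 and 984, were chosen after seeing the data. The causes were not tested. The tables hold no reads per library, so no counting interval is given, and the promoter motif search was not run. No paired analysis was possible because the groups share no library numbers.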
